A study of Ailuropoda melanoleuca with 25 samples.

Results

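The apolipoprotein genes described here were APOA1, APOA2, APOB, APOC1, APOC2, APOC3, APOC4, APOE, APOF and APOH of the giant panda, 10 of the 25376 genes whose expression was measured. They were chosen by name from the study's list of tissue-specific differentially expressed genes (DEGs), which pairs 1778 gene identifiers with a name. A gene was taken when its name was APO followed by A, B, C, D, E, F, H, M or O and, where present, a number, and its identifier was then looked up in the expression table. The list placed all 10 genes under the liver. It also placed APOA1 under the lung, APOB and APOH under the kidney, and APOC1 and APOE under the heart. Since the list was made from the same libraries, a difference between a tissue under which a gene was listed and any other tissue is given here as a description, and only pairs of tissues under neither of which the gene was listed were tested.

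Messenger RNA was sequenced in the liver, lung, spleen, kidney and heart of 5 giant pandas, which gave 25 libraries with 5 per tissue. Panda 1 was an aged female of 27 years that died of ovarian cancer, panda 2 was an adult female of 9 years that died of another cause, and pandas 3, 4 and 5 were 2 females and 1 male of 0.5 years that died of coronavirus infection. The organs came from newly dead animals and were kept in liquid nitrogen, and the young pandas also shared the cause and the year of their death, so these cannot be told apart from age. Levels are given as FPKM, the reads on a gene scaled to the length of the gene and to the total of the library, as the authors deposited them.

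Apolipoproteins are the protein parts of lipoproteins, the particles that carry cholesterol and triglyceride in blood. The liver and the intestine make most of them, and several are also made elsewhere, such as APOE by macrophages. APOA1 and APOA2 are the main proteins of high-density lipoprotein (HDL), APOB is the structural protein of very-low-density and low-density lipoprotein, and the small C apolipoproteins and APOE move between particles, where they act on lipoprotein lipase and on uptake by receptors.

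The libraries held between 13149541 and 21382959 reads on genes, recovered from the steps of the low FPKM values. At these depths 3 reads, the limit that a count of 0 allows, corresponded to between 0.463 and 0.753 FPKM for APOC3 and to between 0.0114 and 0.0185 FPKM for the long APOB gene, counting error only. Tissue labels were set beside marker genes. The identifiers of these markers came from the study's list of tissue-specific DEGs, made with the same labels, so this is not an independent check. The summed level of 9 hepatocyte markers was between 24256 and 65451 FPKM in the livers and at most 486 FPKM elsewhere, that of 7 cardiomyocyte markers was at least 72383 FPKM in the hearts and at most 98.9 FPKM elsewhere, and that of 7 B cell markers was at least 4787 FPKM in the spleens. The liver of panda 3 stood apart, with 8725 genes above 1 FPKM against between 12092 and 12534 in the other livers, and the values it moves most are also given without it. Since whole tissue was sequenced, fewer cells of a type and less RNA per cell cannot be told apart.

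Apolipoprotein transcripts made up a large part of the liver transcriptome and very little of the heart. The 10 genes together held between 3.17% and 7.61% of all FPKM in the livers (median 3.78%). They held between 0.573% and 1.32% in the lungs, between 0.254% and 1.12% in the kidneys, between 0.246% and 0.399% in the spleens, and between 0.00473% and 0.0231% in the hearts. Every liver was above every other library and every heart below, while the kidneys overlapped with the spleens and the lungs. In 3 livers APOC1 was the highest of the 10 genes in FPKM, in panda 1 it was APOA1 and in panda 2 it was APOE. FPKM is raised for genes with short models, such as APOC1 with 267 bases. By reads, APOC1 was the highest in the liver of panda 3 alone, and the 10 genes held between 1.64% and 5.22% of the reads on genes in the livers.

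**Figure D1:**
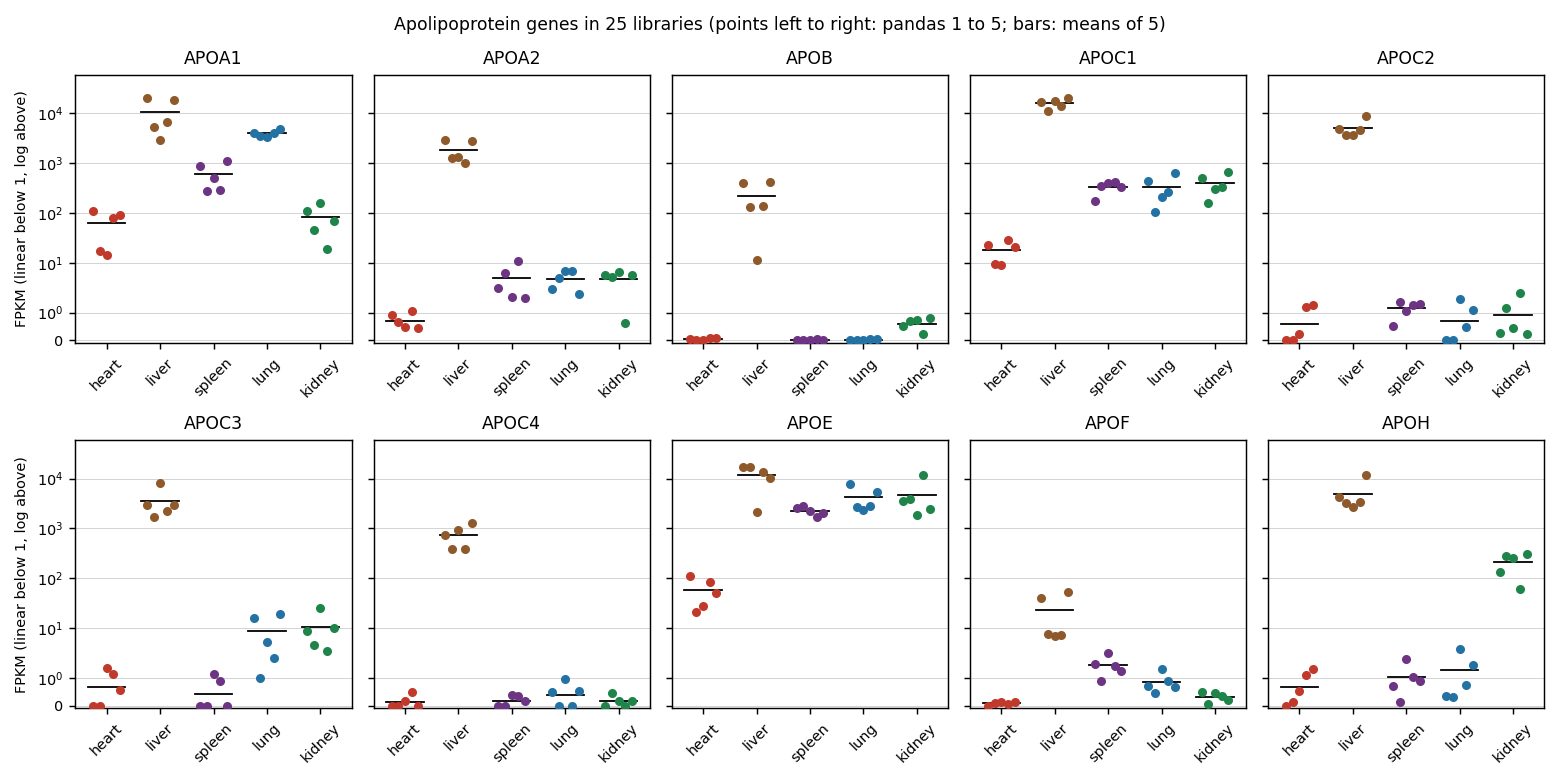
FPKM of each apolipoprotein gene (vertical axis, linear below 1 and logarithmic above) in the 5 tissues (horizontal axis). Each point is a library, pandas 1 to 5 run from left to right within a tissue, and bars are means of 5. APOC2 and APOC4 lie at 392.4 FPKM or above in every liver and at most 2.46 FPKM elsewhere, whereas APOE lies between 1716 and 16975 FPKM in the liver, spleen, lung and kidney.

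APOA1 (ENSAMEG00000008662), the main protein of HDL and the activator of lecithin-cholesterol acyltransferase, had high levels in both the liver and the lung. In the livers of pandas 1 to 5 it stood at 20539, 5274, 2893, 6683 and 18585 FPKM. In the lungs it stood at 3947, 3566, 3276, 4115 and 4900 FPKM. The lung values were close to each other (coefficient of variation 15.6%) while the liver values spread widely (75.5%), and the liver of panda 3 lay below all 5 lungs. The liver mean was 10795 ± 8147 FPKM (SD, n = 5) against 3961 ± 619 FPKM in the lung, and the description of liver minus lung was 1.08 on the log2(FPKM + 1) scale (SE 0.47), which was 1.46 without the liver of panda 3, turned to -0.094 after quantile normalization and was 2.80 with size factors. Without panda 3 the liver mean was 12770 ± 7904 FPKM (SD, n = 4). The spleens followed at 873, 279, 496, 286 and 1128 FPKM, the kidneys at 111, 45.2, 161, 18.8 and 69.4 FPKM, and the hearts at 111, 16.8, 14.4, 79.6 and 93.0 FPKM. Every lung was above every spleen and every spleen was above every kidney and heart, whereas the kidneys and hearts overlapped.

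APOA2 (ENSAMEG00000015443), the second protein of HDL, was confined almost wholly to the liver among these tissues. Its livers stood at 2876, 1263, 1309, 1024 and 2757 FPKM (mean 1846 ± 894, SD, n = 5). The spleens lay between 1.93 and 10.8 FPKM, the lungs between 2.37 and 6.89 FPKM, the kidneys between 0.608 and 6.42 FPKM and the hearts between 0.445 and 1.06 FPKM. The lungs held 19.2% to 113% of the APOA1 level of the liver of the same panda, or at most 67.6% without panda 3, and 0.0860% to 0.673% of its APOA2 level.

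APOB (ENSAMEG00000013086), the structural protein of the particles that leave the liver with triglyceride, had liver values of 395, 135, 11.1, 137 and 409 FPKM. These spanned 36.8-fold with the liver of panda 3 and 3.04-fold without it. The kidneys were listed at 0.509, 0.709, 0.714, 0.239 and 0.806 FPKM, which rested on 48 to 168 reads. The hearts, spleens and lungs stood at most at 0.0724 FPKM, on 0 to 15 reads. Every kidney was therefore above every heart, spleen and lung, at a level far under that of the liver.

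APOH (ENSAMEG00000011842), also known as beta-2-glycoprotein I, a plasma protein that binds phospholipid, was the other gene listed under the kidney. Its livers stood at 4204, 3266, 2631, 3406 and 11592 FPKM and its kidneys at 134, 280, 257, 61.7 and 308 FPKM. The kidneys held between 1.81% and 9.75% of the level in the liver of the same panda. The hearts, spleens and lungs held between 0 and 3.85 FPKM, so that every kidney exceeded them.

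APOF (ENSAMEG00000003941), an inhibitor of cholesteryl ester transfer protein, had the lowest liver level of the 10 genes. The livers stood at 40.5, 7.70, 6.79, 7.34 and 54.0 FPKM, which separates pandas 1 and 5 from the other 3. The spleens were listed at 1.88, 0.870, 3.19, 1.70 and 1.35 FPKM, and the lungs lay between 0.445 and 1.53 FPKM, the kidneys between 0.0675 and 0.502 FPKM and the hearts between 0 and 0.142 FPKM. Outside the liver these values rested on 0 to 37 reads.

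The C apolipoproteins fell into those found in the liver alone and those with a level elsewhere. APOC2 (ENSAMEG00000012730), the cofactor of lipoprotein lipase, stood at 4927, 3614, 3647, 4610 and 8710 FPKM in the livers and at most at 2.46 FPKM in any other library, on 0 to 11 reads. APOC4 (ENSAMEG00000012734) stood at 737, 393, 945, 392.4 and 1300 FPKM in the livers and at most at 0.977 FPKM elsewhere, on 0 to 5 reads. At so few reads the order of the other 4 tissues could not be given for either gene, and their ranges overlapped throughout.

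APOC3 (ENSAMEG00000008670), an inhibitor of lipoprotein lipase, had liver values of 2962, 1699, 8211, 2244 and 2991 FPKM, with the liver of panda 3 at the top. The kidneys stood at 8.73, 4.57, 25.2, 3.46 and 10.2 FPKM and the lungs at 16.3, 1.0, 5.28, 2.49 and 18.8 FPKM. The hearts stood at 0, 0, 1.60, 1.18 and 0.559 FPKM and the spleens at 0, 0, 1.21, 0.874 and 0 FPKM, on at most 8 reads. The kidneys and lungs thus overlapped with each other, the kidneys lay above all hearts and spleens, and the lowest lung overlapped with the hearts and spleens.

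APOC1 (ENSAMEG00000012737), an inhibitor of cholesteryl ester transfer protein and of lipoprotein uptake, had the lowest coefficient of variation of the 10 genes over the 5 livers (22.6%). Without panda 3 its livers spanned 1.87-fold, against 1.66-fold for APOE and 1.76-fold for APOC3, so this place depended on that liver. Outside the liver APOC1 ran at 170, 342, 398, 424 and 333 FPKM in the spleens, at 443, 104, 209, 268 and 624 FPKM in the lungs and at 511, 159, 299, 330 and 654 FPKM in the kidneys. These 3 tissues overlapped, and in the lungs and the kidneys pandas 1 and 5 were the highest. The hearts stood below them at 22.6, 9.52, 8.86, 28.2 and 20.3 FPKM.

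APOE (ENSAMEG00000012740), a ligand of the low-density lipoprotein receptor, was the gene of the 10 with the most even levels outside the heart. Its livers stood at 16975, 16820, 2128, 13320 and 10226 FPKM and its kidneys at 3495, 3916, 1819, 12018 and 2482 FPKM. Its lungs stood at 7786, 2649, 2389, 2759 and 5329 FPKM and its spleens at 2544, 2867, 2234, 1716 and 2045 FPKM. The ranges of all 4 tissues overlapped, with the liver of panda 3 and the kidney of panda 4 far from the rest of their tissues. Without panda 3 the liver mean rose from 11894 ± 6129 FPKM (SD, n = 5) to 14335 ± 3217 FPKM (SD, n = 4). The hearts stood at 110, 21.2, 27.6, 82.2 and 51.2 FPKM, below every library of the other tissues.

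CD5L, a gene of tissue macrophages, was followed beside APOC1 and APOE, since it was the single gene of a list of 13 macrophage markers with an identifier. It stood between 1127 and 1624 FPKM in the spleens, between 23.9 and 142 FPKM in the lungs, between 0.662 and 93.3 FPKM in the livers, at most at 0.486 FPKM in the kidneys and at most at 0.367 FPKM in the hearts. The APOC1 and APOE levels of the kidneys overlapped with those of the spleens. CD5L had an identifier only through the study's list of tissue-specific DEGs, and a single gene does not measure the macrophages of a tissue. The part of macrophages in the APOC1 and APOE levels was not tested.

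The differences between the liver and the other tissues covered a wide range among the 10 genes. On the log2(FPKM + 1) scale, liver minus heart ran from 3.95 (SE 0.55) for APOF to 11.68 (SE 0.36) for APOC2. Liver minus kidney ran from 1.36 (SE 0.61) for APOE to 11.41 (SE 0.38) for APOC2. Liver minus spleen ran from 2.1 (SE 0.50) for APOE to 11.18 (SE 0.43) for APOC3. Liver minus lung ran from 1.08 for APOA1 to 11.60 (SE 0.37) for APOC2. These values chose the genes and carry no test. The pseudocount of 1 lowers the difference of genes with low levels, such as APOF and APOB.

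**Figure D2:**
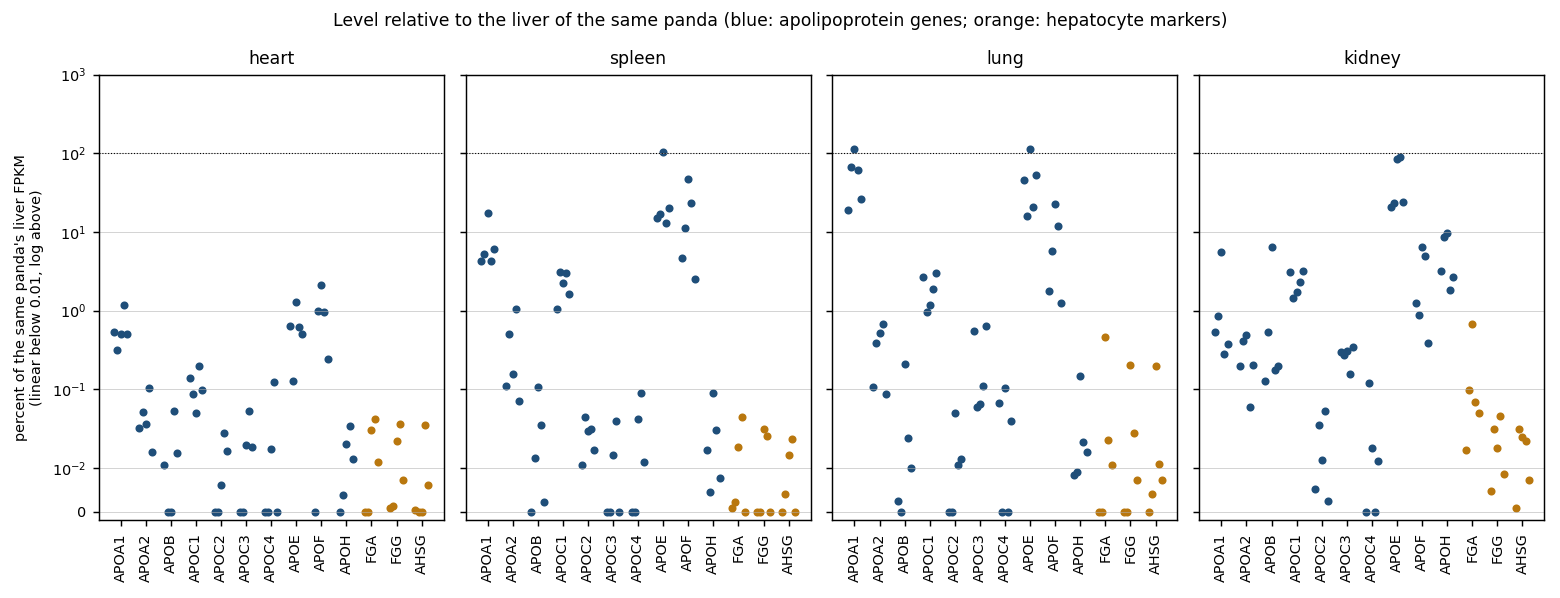
FPKM in the heart, spleen, lung and kidney as a percentage of the liver of the same panda (vertical axis, linear below 0.01 and logarithmic above), for the 10 apolipoprotein genes in blue and 3 of the 9 hepatocyte markers (FGA, FGG and AHSG) in orange, with a point per panda and a dotted line at 100. Markers not drawn reached higher values, such as FGB with 6.47% in a kidney. APOE reaches 105% in the spleen and 112% in the lung of panda 3, against at most 19.99% and 52.1% in the other pandas, while APOC2 and APOC4 stay at or below 0.123%.

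The level relative to the liver of the same panda was set beside that of the hepatocyte markers. The 9 markers differed widely among themselves. Their medians over the pandas ran from 0 to 0.283% in the hearts, from 0 to 0.914% in the spleens, from 0.00653% to 0.894% in the lungs and from 0.0147% to 1.66% in the kidneys, with TF, transferrin, the highest in each. FGG, AHSG and FGA encode plasma proteins made by hepatocytes, and FGG and AHSG were also the genes of the DEG list closest in pattern to APOC2. They held at most 0.0415% in any heart, 0.0439% in any spleen, 0.457% in any lung and 0.678% in any kidney. Other markers held more in the kidneys. FGB held between 0.762% and 6.47% there, or at most 2.45% without panda 3, and SERPINA1 held between 0.183% and 0.855%. APOC2 held at most 0.0533% in any tissue, within the range of the markers. APOC4 held at most 0.123%, in the heart of panda 4, on 3 reads. APOE held between 12.9% and 19.99% in the spleens and between 15.7% and 52.1% in the lungs of the 4 pandas other than panda 3, where it held 105% and 112%, and between 20.6% and 90.2% in the kidneys of all 5. APOA1 held between 4.25% and 6.07% in the spleens of these 4 pandas and 17.1% in that of panda 3. APOC1 held between 0.949% and 3.18% in the spleens, lungs and kidneys. Without panda 3, TF held at most 1.28% in the spleens and 0.978% in the lungs, against at most 3.12% and 3.04% for APOC1. In panda 3, TF held 2.86% in the spleen and 2.06% in the lung, against 2.27% and 1.19% for APOC1. In the kidneys TF held up to 5.30% and APOC1 up to 3.18%. APOC3 held between 0.154% and 0.340% in the kidneys, within the range of the markers there. In the hearts of pandas 1 and 2, APOC2, APOC3 and APOC4 had 0 reads, and 2 and 5 of the 9 hepatocyte markers were at 0, against 2, 0 and 0 in pandas 3, 4 and 5. Whether these low heart values came with liver RNA was not tested.

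The livers of pandas 1 and 5 carried the highest levels of several of these genes. Relative to the liver median of each gene, 7 genes were higher and 0 lower in panda 1, and 9 were higher and 1 lower in panda 5. The liver of panda 2 was higher for 1 gene and lower for 8, and that of panda 4 was higher for 0 and lower for 5. APOA1, APOA2, APOB, APOC2, APOF and APOH had their highest and their next highest liver level in pandas 1 and 5. In FPKM, the liver of panda 3 had the lowest APOA1, APOB, APOE, APOF and APOH and the highest APOC3 of the 5 livers. These levels are not scaled between libraries. The median-of-ratios size factor of this liver was 0.208, against between 0.584 and 0.671 in the other livers, so its place can change with scaling. The spread of levels over the 5 livers was smallest for APOC1, at 1.87-fold from the lowest to the highest, followed by APOC2 at 2.41-fold and APOA2 at 2.81-fold. APOE spanned 7.98-fold and APOC3 4.83-fold. Without panda 3 APOE fell to 1.66-fold and APOC3 to 1.76-fold, below the 1.87-fold of APOC1.

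**Figure D3:**
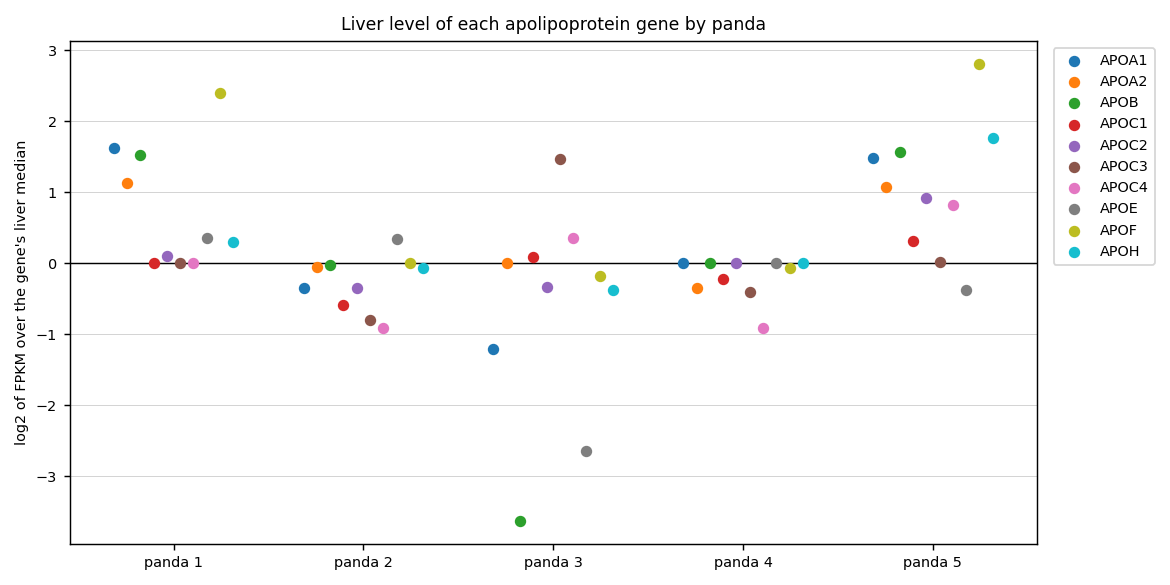
Liver level of each apolipoprotein gene by panda, as the log2 of its FPKM over the median of the 5 livers (vertical axis). Points are genes, coloured as in the key, and the line at 0 is the gene's median. Panda 3 ranges from -3.63 for APOB to 1.47 for APOC3, and panda 5 reaches 2.81 for APOF.

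APOC2, APOC4, APOC1 and APOE followed each other in this order on chromosome 12 of the RefSeq annotation of a newer giant panda assembly (ASM200744v3), and APOC3 lay next to APOA1 on chromosome 8. That assembly differs from the one used for the reads (ailMel1), so no positions are given. All 10 genes were matched there by symbol. The neighbours APOC2 and APOC4 had overlapping ratios, with APOC2 over APOC4 between 3.86-fold and 11.7-fold in the livers and between 1.35-fold and 9.43-fold in the 10 other libraries with reads on both. In the cluster on chromosome 12, APOE exceeded its neighbour APOC1 in all 20 libraries outside the liver, by between 1.15 and 5.19 on the log2 scale, while the log2 ratio was 0.043, 0.62, -3.04, -0.090 and -1.01 in the livers of pandas 1 to 5. APOC1 exceeded APOC2 by between 1.24 and 2.26 on the log2 scale in the livers and by between 7.72 and 8.54 in the spleens, where APOC2 rested on 2 to 7 reads. The log2 ratio of APOA1 to its neighbour APOC3 was between -1.51 and 2.79 in the livers, between 2.44 and 3.67 in the kidneys and between 7.92 and 11.79 in the lungs. The lungs did not overlap with the livers or the kidneys in this ratio. It could not be formed in 2 hearts and 3 spleens where APOC3 had 0 reads.

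**Figure D4:**
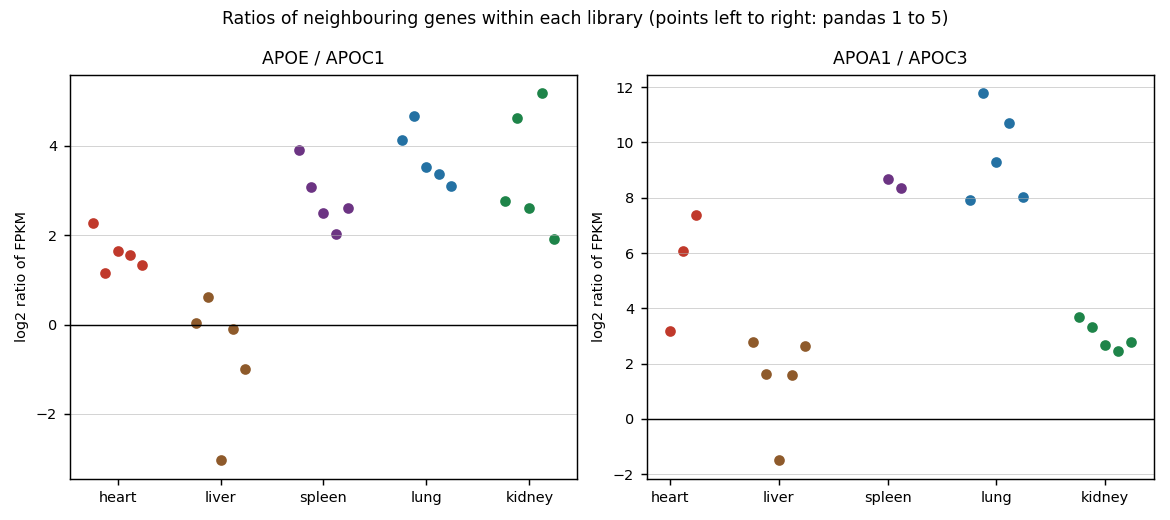
Log2 ratio of the FPKM of APOE to its neighbour APOC1 (left) and of APOA1 to its neighbour APOC3 (right) in each library (vertical axes), by tissue, with pandas 1 to 5 from left to right and libraries without APOC3 reads left out. APOE over APOC1 reaches at most 0.62 in the livers and is at least 1.15 elsewhere, and APOA1 over APOC3 is at least 7.92 in the lungs.

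For the 10 genes, 45 combinations of a gene and a pair of tissues had both tissues outside the list. Of these, 16 had a mean of 1 FPKM or less in both tissues and were left out, which took away every combination of APOB and APOC4. The other 29, over 8 genes, were tested with limma on log2(FPKM + 1), and p-values were adjusted (Benjamini-Hochberg) over all genes tested in that pair. To be called, a difference had to pass 2 on the log2 scale in size and have an adjusted p below 0.05. In all, 6 differences were called, 2 of APOA1 and 4 of APOC3, a further 5 passed the adjusted p with a smaller difference, and 18 did not pass it. With the panda as a block, APOF spleen minus lung (0.57, adjusted p = 0.0230, limma) and APOC2 heart minus spleen (-0.57, adjusted p = 0.0393, limma) passed it too, each in the same direction in 5 of 5 pandas. The hearts were lower than the spleens, lungs and kidneys over all genes, with a median log2 difference of -1.16 from the spleen, -1.17 from the lung and -0.76 from the kidney, and the differences of the members are also given less that median. APOC2 heart minus spleen, on 0 to 7 reads per library, turned to 0.59 less the median and to 0.017 after quantile normalization. APOF spleen minus lung was 0.54 less the median.

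APOA1 was lower in the heart and in the kidney than in the spleen. Heart minus spleen was -3.47 on the log2 scale (SE 0.61, adjusted p = 0.000208, limma), or -2.31 less the median of all genes, and it was negative in 5 of 5 pandas. It was the only call among the 5 members tested in this pair, in which 23.3% of all genes tested were called. Spleen minus kidney was 3.01 (SE 0.55, adjusted p = 0.000647, limma), or 2.60 less the median, again in 5 of 5 pandas. In this pair, 2 of 7 members were called and 14.3% of all genes. Heart minus kidney was -0.46 (95% interval -1.86 to 0.93, adjusted p = 0.543, limma) and was not called.

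APOC3 was higher in the kidney and the lung than in the heart and the spleen. Spleen minus kidney was -2.81 (SE 0.45, adjusted p = 0.000257, limma) and heart minus kidney was -2.59 (SE 0.46, adjusted p = 0.000445, limma), each in 5 of 5 pandas and with no overlap between the libraries. APOC3 was the called gene among 3 members tested between heart and kidney, where 15.3% of all genes were called. Against the lung, heart minus lung was -2.15 (SE 0.58, adjusted p = 0.00442, limma) and spleen minus lung was -2.36 (SE 0.58, adjusted p = 0.00886, limma). In each of these pairs it was the called gene, out of 3 members beside 22.9% of all genes in heart and lung, and out of 7 members beside 6.88% in spleen and lung. Less the median of all genes, heart minus lung was -0.98, heart minus kidney -1.83, spleen minus lung -2.40 and spleen minus kidney -3.22. The calls against the lung did not hold under every alternative. After quantile normalization APOC3 heart minus lung was -1.22 (adjusted p = 0.10, limma) and APOC3 spleen minus lung was -1.89, and with size factors they were -1.36 and -1.93. Without the lung of panda 5 they were -1.76 and -1.98, within the limit of 2. APOC3 heart minus lung also fell within that limit without the lung of panda 1 (-1.81) and without the heart of panda 1 or of panda 2 (-1.99 each). Lung minus kidney was -0.45 (95% interval -1.84 to 0.94) and was not called, as was no other of the 4 members tested in this pair, in which 12.2% of all genes were called.

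**Figure D5:**
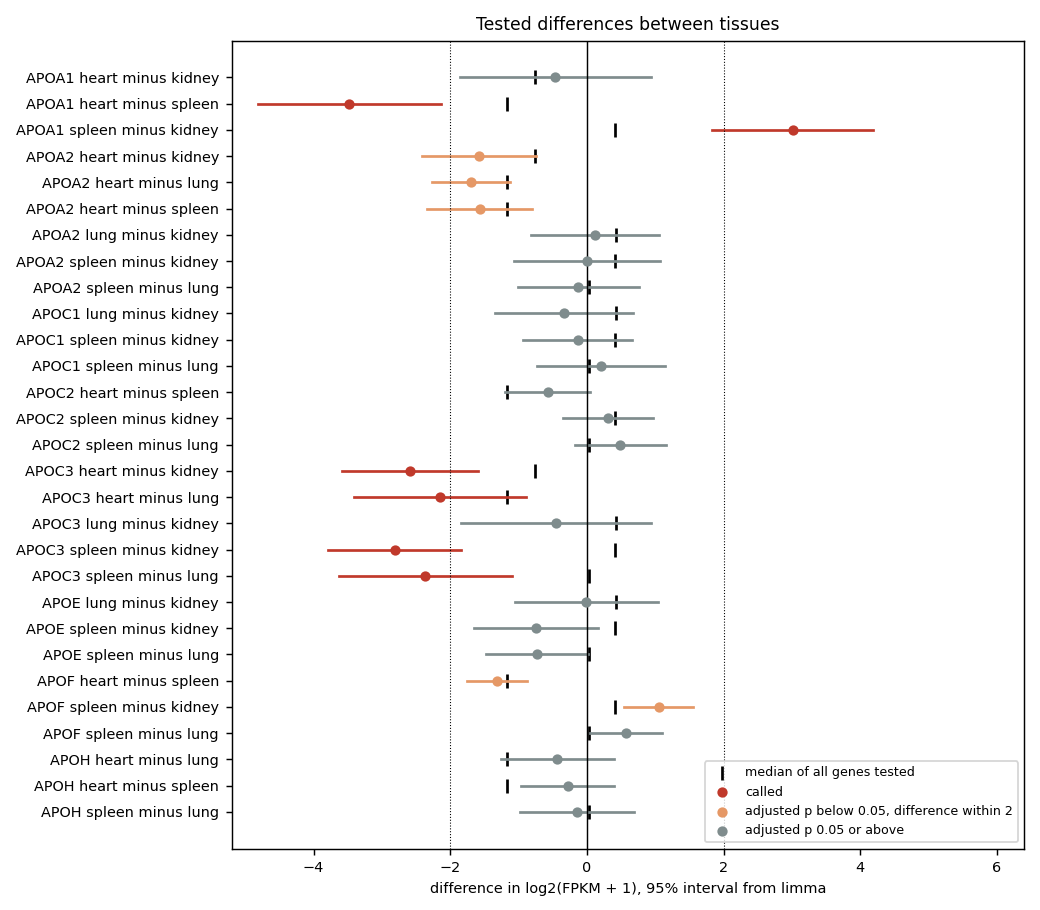
The 29 tested differences between tissues in log2(FPKM + 1) (horizontal axis), with 95% intervals from limma, a short vertical mark for the median of all genes tested in that pair and dotted lines at the limits of -2 and 2. The 6 called differences, in dark red, belong to APOA1 and APOC3 and run from -3.47 to 3.01.

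APOA2 and APOF had smaller differences that passed the adjusted p alone. For APOA2, heart minus spleen was -1.57 (adjusted p = 0.00125, limma), heart minus lung was -1.69 (adjusted p = 7.93e-05, limma) and heart minus kidney was -1.58 (adjusted p = 0.00414, limma). The share of all genes with an adjusted p below 0.05 was 82% for heart and spleen, 80.9% for heart and lung and 58.4% for heart and kidney, and less the median of all genes the differences of APOA2 were -0.40, -0.52 and -0.81. For APOF, heart minus spleen was -1.32 (adjusted p = 6.52e-05, limma), or -0.15 less the median. Its spleen minus kidney was 1.05 (adjusted p = 0.00277, limma), where 52.3% of all genes passed. With a pseudocount of 0.1 all 5 of these differences exceeded 2 and were called. Other scalings raised the adjusted p of APOA2 above 0.05. After quantile normalization APOA2 heart minus spleen was -0.56 (adjusted p = 0.188, limma), APOA2 heart minus lung was -0.57 (adjusted p = 0.0924, limma) and APOA2 heart minus kidney was -0.83 (adjusted p = 0.0613, limma), and with size factors APOA2 heart minus spleen was -0.75 (adjusted p = 0.0822, limma).

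APOC1 and APOE did not differ past the threshold among the spleen, lung and kidney. For APOE, spleen minus lung was -0.73 (95% interval -1.48 to 0.017), spleen minus kidney was -0.74 (-1.65 to 0.17) and lung minus kidney was -0.0072 (-1.05 to 1.04). For APOC1 the same differences were 0.20 (-0.73 to 1.14), -0.14 (-0.93 to 0.66) and -0.34 (-1.35 to 0.67). APOC1 was lower in the lung than in the kidney in 5 of 5 pandas, with log2 differences between -0.61 and -0.068. APOC2 and APOH, at about 1 FPKM in these pairs, ran from -0.57 to 0.49 with adjusted p between 0.0799 and 0.813 (limma), and were not called in any pair.

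The 3 young pandas were compared with the adult and the aged panda within each tissue, which the choice of genes did not use. None of 32 tests of a member was called at an adjusted p below 0.05 (limma), beside 0% of all genes in each tissue, and 0 of 32 had an unadjusted p below 0.05, against 87 of 12355 genes in the liver and 1628 of 15346 in the spleen. The lowest unadjusted p was 0.0602, for APOH in the lung, where the young lungs stood at 3.85, 0.726 and 1.83 FPKM and the others at 0.356 and 0.293 FPKM. APOE was lower in the young livers (2128, 13320 and 10226 FPKM) than in the others (16975 and 16820 FPKM) without overlap, with a log2 difference of -1.35 (SE 0.91, adjusted p = 0.955, limma), which was -0.53 without the liver of panda 3. None of these differences exceeded the spread between pandas under the test.

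The patterns most like those of APOC1 and APOC2 were sought among 1768 other named genes, all from the study's list of tissue-specific DEGs. The measure was the root mean square difference of log2(FPKM + 1) over the 25 libraries after centring each gene. For APOC2 the closest were FGG (0.58), AHSG (0.68), FETUB (0.75), SERPINA4 (0.77) and CYP2E1 (0.99). These genes stood at 5079, 6978, 1270, 2217 and 904 FPKM in the liver on average and at most at 0.783 FPKM in any other tissue. For APOC1 the closest were TF (1.36), AMDHD1 (1.43), SERPIND1 (1.45), ATF5 (1.53) and C4BPB (1.53). Among these listed genes APOC1 had no neighbour as close as those of APOC2, and genes outside the list were not searched. APOC2 averaged at most 1.22 FPKM outside the liver, where the pseudocount of 1 flattens differences between genes. The distances of APOC1 and APOC2 are therefore not on equal terms. TF, the iron carrier transferrin, averaged 2344 FPKM in the liver and between 5.09 FPKM (heart) and 27.3 FPKM (kidney) elsewhere.

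Other genes of lipoprotein metabolism were taken from a list of 62, of which 23 had an identifier. All 23 identifiers came from the study's own list of tissue-specific DEGs, so their directions are not independent evidence. Of the 23, 9 were called higher in the liver than in each of the other 4 tissues and 2 were called lower, beside 1.89% and 1.77% of all genes tested in the 4 comparisons. Those shares cover all genes, listed or not, so they are no baseline for genes taken from that list. Among lipases and their regulators 4 of 5 were higher, including LIPC, the hepatic lipase (69.9 ± 9.48 FPKM in the liver, SD, n = 5, and at most 0.863 FPKM on average elsewhere). Among transcription factors 4 of 6 were higher, NR0B2, FOXA3, CREB3L3 and NR5A2, of which NR0B2 stood at 303 ± 184 FPKM (SD, n = 5) in the liver and at most at 1.29 FPKM on average elsewhere. Among genes of assembly and secretion, SOAT2, which esterifies cholesterol, was higher.

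SORT1, a sorting receptor of secreted proteins, and VLDLR, a receptor that binds lipoproteins with APOE, were the 2 genes called lower in the liver. VLDLR was called in 3 of the 4 comparisons after quantile normalization and with size factors, where liver minus lung was -1.50 and -1.79. SORT1 stood at 1.52 ± 0.862 FPKM (SD, n = 5) there against means between 15.9 FPKM in the heart and 91.5 FPKM in the lung. VLDLR stood at 0.320 ± 0.183 FPKM (SD, n = 5) against means between 7.76 FPKM in the lung and 33.8 FPKM in the spleen. LRP2, CUBN and AMN form the receptors by which the kidney tubule takes up filtered proteins such as APOA1. All 3 were called lower in the liver than in the kidney, where they averaged 66.7, 44.0 and 192 FPKM, and CUBN and LRP2 averaged at most 0.0539 FPKM in the liver. MTTP, which loads lipid onto APOB, stood at 46.9 ± 36.4 FPKM in the liver and 14.7 ± 9.26 FPKM in the kidney (SD, n = 5), the same pair of tissues in which APOB had its highest levels, and at most at 0.200 FPKM on average in the other 3. The difference of MTTP between liver and kidney, 1.32 on the log2 scale, was not called. APOB averaged 218 FPKM in the liver and 0.596 FPKM in the kidney, and a link between the levels of MTTP and APOB was not tested.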

How the data were processed

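The authors filtered paired-end reads, aligned them to ailMel1 with HISAT2, added transcripts assembled with Cufflinks and counted reads per gene with HTSeq. They deposited an FPKM value for each gene and library, computed from read count and gene length, with no scaling between libraries stated. The authors' own comparisons used DESeq.

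Libraries were grouped by tissue from the labels, and each of the 5 replicates of a tissue was a separate animal. Libraries with the same number came from the same panda. Their deviations from the tissue means correlated at between 0.0600 and 0.521 across genes (median 0.367, 49 of 50 pairs above 0.1). Pairs from other pandas ran from -0.469 to 0.377 (median -0.122, 42 of 200 pairs above 0.1), so the ranges overlapped. Since low FPKM values rise in whole steps, read numbers were recovered for 24207 of 24207 genes above 0, to within 0.05 reads. Recovery and fits were tested on simulated data. Read intervals and limits cover counting error only. The recovered gene lengths of the 10 genes, between 267 and 12360 bases, were multiples of 3 and are coding lengths, which raises the FPKM of genes with short models.

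Pairs of tissues, and young against older pandas, were compared with limma 3.58.1 (R 4.3.3) with a variance trend on log2(FPKM + 1), over genes with a mean above 1 FPKM in a tissue compared. Other steps used Python 3.11.15, numpy 2.4.6, pandas 2.3.3 and matplotlib 3.10.9. Alternatives were a pseudocount of 0.1, no filter, quantile normalization, median-of-ratios size factors, limma-voom on recovered reads, the panda as a block, a single fit, and leaving out each library. All 10 genes are named, with the 5 genes nearest in pattern to APOC1 and APOC2 and up to 4 pathway genes of each role with the largest differences. LRP2, CUBN, AMN and MTTP were named after their values were seen. The members and lists were chosen with earlier results of these data known. Marker lists were used where at least 80% of the genes had an identifier, so those of lung epithelium (6 of 8) and macrophages (1 of 13) were not. Proximal tubule markers (7 of 8) summed to between 392 and 3149 FPKM in the kidneys and to at most 398 FPKM elsewhere. Sequences of the genes were not analysed here.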

Additional observations from a re-analysis of the deposited data

Results flagged for a closer look

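In each of 50 groups, a gene in the 5 libraries of a tissue, the highest and the lowest library were compared with their nearest neighbour. In 5 groups the gap exceeded 0.71 of the whole range, Dixon's limit for 5 samples. For normally distributed values, chance alone flags about 1 in 20 groups. The limit was applied to FPKM without a log, so skewed values can change both that rate and the groups flagged. APOE was highest in the kidney of panda 4 at 12018 FPKM, with the next kidney at 3916 FPKM. APOA2 was lowest in the same kidney at 0.608 FPKM, on 5 reads, with the next kidney at 5.23 FPKM. APOC3 was highest in the liver of panda 3 at 8211 FPKM, with the next liver at 2991 FPKM. APOH and APOC2 were both highest in the liver of panda 5, APOH at 11592 FPKM with the next at 4204 FPKM, and APOC2 at 8710 FPKM with the next at 4927 FPKM.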

How the results depend on the processing

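Between tissues, the 6 called differences of members became 11 with a pseudocount of 0.1 and 11 with limma-voom on recovered reads, and stayed at 6 with the panda as a replicate block, in a single fit and without a filter. Quantile normalization and size factors each gave 4. Leaving out a library gave between 4 and 6. The calls lost were APOC3 heart minus lung, in 6 of 32 alternatives, and APOC3 spleen minus lung, in 3. The other 4 calls were kept in all 32 alternatives, APOA1 heart minus spleen at between -3.79 and -2.11. Many of the 32 leave out a library of a tissue outside the pair. These left the difference unchanged and could not alter a call. The described difference APOA1 liver minus lung reversed to -0.094 after quantile normalization and was 2.80 with size factors, which moved 9 of 10 described liver differences beyond the spread between replicates. Between young and older pandas, 0 tests were called under every alternative run and with any library left out (0 to 0). The number of pathway genes called higher in the liver was 9, between 9 and 11 with a library left out, 11 after quantile normalization and 13 with size factors. The number called lower was 2, which became 1 after quantile normalization and 1 with size factors, VLDLR being lost, and was 2 with any library left out. Depth limits APOB and APOC4 outside the liver, and APOC2, APOC3 and APOF in the tissues where they rest on few reads.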
